A study of Drosophila melanogaster with 6 samples.

Results

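The homeotic genes of Drosophila melanogaster are the 8 selector genes of the Antennapedia and bithorax complexes: lab (labial), pb (proboscipedia), Dfd (Deformed), Scr (Sex combs reduced), Antp (Antennapedia), Ubx (Ultrabithorax), abd-A (abdominal A) and Abd-B (Abdominal B). They were taken by gene identifier, as FBgn0002522, FBgn0051481, FBgn0000439, FBgn0003339, FBgn0260642, FBgn0003944, FBgn0000014 and FBgn0000015 in the same order, and are 8 of the 14737 genes in the count table. The table divides these 8 genes into 120 features, of which 66 are exonic bins (stretches of exon) and 54 are annotated splice junctions. All 8 lie on chromosome arm 3R. RNA came from whole embryos of a strain with the allele CC01391 of caper, called caper mutant here, and of the wild-type strain OreR, with 3 biological replicates each. Nothing in the sources used here gives the age of the embryos, whether the allele was homozygous, or the background of the mutant strain. Allele and strain background cannot be told apart, because each genotype is a single strain.

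Homeotic proteins are transcription factors with a homeodomain, and each gives a stretch of the body axis its segmental identity. The genes are transcribed in nested domains whose order from head to tail follows their order on the chromosome. Early segmentation factors set these domains, and Polycomb and trithorax group proteins then maintain the silent or active state. Several of the genes also make more than one protein, through alternative promoters and very short cassette exons. Caper is an RNA-binding protein related to the vertebrate splicing factor RBM39, and the series asked how expression and isoform use differ in its mutant.

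The 6 libraries held between 34815930 and 42956396 gene counts and were sequenced in 1 lane. The caper gene was not analysed here, which leaves the genotype labels without a check by its own RNA. All 8 homeotic genes passed the filter on low counts, and their levels are given as CPM, the count scaled to the size of the library. Between genotypes, 46.9% of the 10251 genes tested changed, which is the background for the counts below (edgeR quasi-likelihood, adjusted p below 0.05 by the Benjamini-Hochberg method). Among those tested, 26.4% of genes were higher in the mutant and 20.6% were lower. That split depended on scaling: 2702 genes were higher and 2109 lower as scaled here, and 2269 were higher and 3566 lower with upper quartile scaling, which shifted the median over all genes by -0.16 on the log2 scale.

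Estimated levels of homeotic RNA were modestly lower in caper mutant embryos for each of the 8 genes. Of the 8 genes, 4 fell (Dfd, Scr, Antp and abd-A), 0 rose and 4 did not pass the test (lab, pb, Ubx and Abd-B), against the 20.6% of all genes that fell. The estimated log2 fold change, mutant over OreR, was negative for 8 of 8 genes, as it was for 54.9% of all genes tested. It lay between -0.40 and -0.21 with a median of -0.33, and the median over all tested genes was -0.07. Those values are inside the middle range of the transcriptome, whose quartiles were -0.42 and 0.40. For 6 of the 8 genes every mutant library was below every OreR library, a pattern seen in 29.5% of all genes. The number that fell was lower on leaving out any 1 library. It was 1 (Scr) without OreR replicate 2, the library in which all 8 genes were highest. It was 0 without mutant replicate 2, where 1 gene had an unadjusted p below 0.05 in edgeR. It was 2 without OreR replicate 1, and 1 without OreR replicate 3, mutant replicate 1 or mutant replicate 3. Each such fit has fewer libraries, and calls over all genes also dropped, from 4811 to between 3169 and 4376. The lost calls therefore cannot be tied to particular libraries. Upper quartile scaling gave 7 genes that fell, all but pb, and DESeq2 gave 2.

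Summed over the 8 genes, homeotic RNA made up 492.3, 438.5 and 470.1 CPM in mutant replicates 1 to 3, against 524.7, 654.9 and 542.6 CPM in OreR replicates 1 to 3. The genotypes did not overlap, and OreR replicate 2 stood above the other OreR libraries by more than those differed from each other. In whole embryos, fewer cells expressing a gene and less RNA per expressing cell cannot be told apart.

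**Figure D1:**
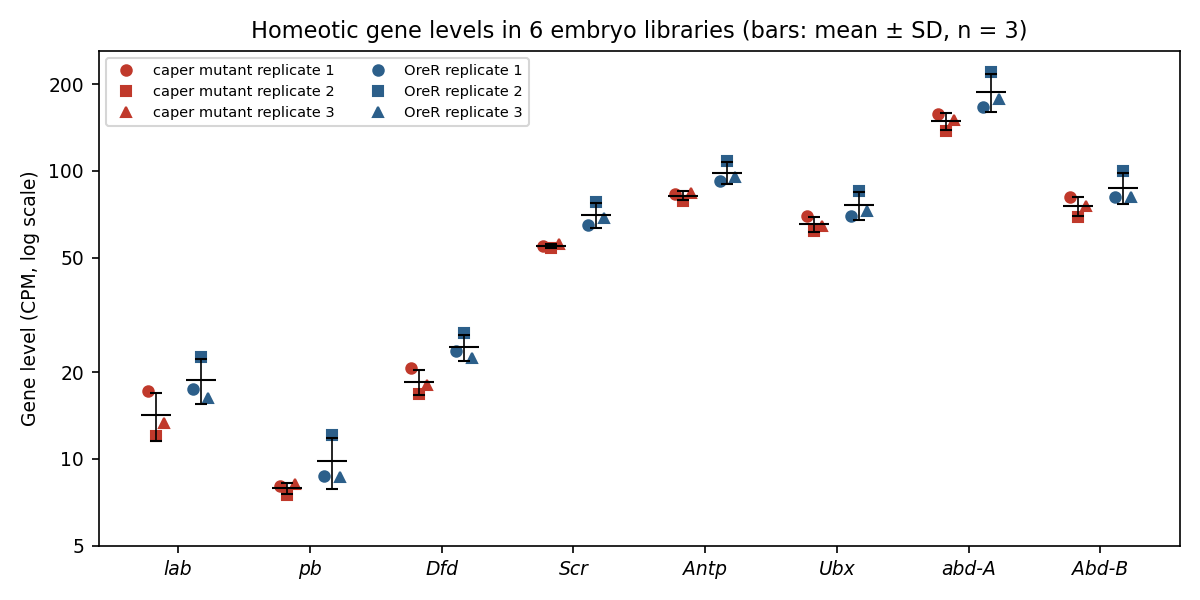
Level of each homeotic gene in CPM on a log axis, with caper mutant libraries (red) left of OreR libraries (blue), 1 point per library, a symbol per replicate number, and bars for the mean ± SD of 3 libraries. In 6 of the 8 genes all mutant points lie below all OreR points, lab and Ubx overlap, and OreR replicate 2 is the highest point in every gene.

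The genes of the Antennapedia complex act in the head and thorax. lab, which acts in the intercalary segment of the head and in the middle midgut, had 17.3, 12.03 and 13.4 CPM in mutant replicates 1 to 3, against 17.5, 22.6 and 16.3 CPM in OreR replicates 1 to 3. Mutant replicate 1 reached the OreR range and the other mutant libraries did not. Its log2 fold change of -0.40 ± 0.18 (SE) did not pass the test (edgeR adjusted p = 0.106). pb, which directs the mouthparts of the adult and is dispensable for the embryo, was the lowest of the set, with 8.04, 7.51 and 8.15 CPM in mutant libraries, against 8.74, 12.1 and 8.68 CPM in OreR libraries. The mutant libraries were all lower, but the OreR spread was wide, and the log2 fold change of -0.32 ± 0.17 did not pass the test (edgeR adjusted p = 0.154).

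Dfd, which specifies the maxillary and mandibular segments, had 20.6, 16.9 and 18.1 CPM in mutant libraries, against 23.7, 27.3 and 22.4 CPM in OreR libraries. All mutant libraries were below all OreR libraries. The level fell by 24.2%, with a log2 fold change of -0.40 ± 0.13 (edgeR adjusted p = 0.0360). Scr, which specifies the labial segment and first thoracic segment and switches on the salivary glands, had 54.7, 54.0 and 55.7 CPM in mutant libraries, against 64.7, 78.3 and 68.4 CPM in OreR libraries. The mutant libraries were close together and well apart from OreR. Scr fell by 22.3%, a log2 fold change of -0.36 ± 0.09 with the smallest p of the set (edgeR adjusted p = 0.0164). Its call held in 9 of the 11 alternative settings and was lost without mutant replicate 1 (adjusted p = 0.0589 in edgeR) and without mutant replicate 2 (adjusted p = 0.0710 in edgeR). Antp, which promotes thoracic identity, had 83.3, 78.6 and 84.0 CPM in mutant libraries, against 92.5, 108.5 and 94.9 CPM in OreR libraries. The genotypes did not overlap, and Antp fell by 16.9%, with a log2 fold change of -0.27 ± 0.09 (edgeR adjusted p = 0.0400).

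The bithorax complex supplies the posterior thorax and the abdomen. Ubx, which sets the identity of the third thoracic and first abdominal segments, had 69.9, 62.0 and 64.4 CPM in mutant libraries, against 69.7, 85.5 and 72.5 CPM in OreR libraries. Mutant replicate 1 and OreR replicate 1 were at the same level. The log2 fold change of -0.21 ± 0.10 did not pass the test (edgeR adjusted p = 0.122). abd-A, which acts in the middle abdominal segments, was the most abundant of the set, with 157.4, 138.1 and 150.9 CPM in mutant libraries, against 166.4, 220.8 and 178.2 CPM in OreR libraries. The highest mutant library was just under the lowest OreR library. abd-A fell by 21.1%, and its log2 fold change of -0.34 ± 0.12 had an adjusted p near the threshold (edgeR, 0.0468). Abd-B, which specifies the most posterior segments and the genitalia, had 81.0, 69.4 and 75.5 CPM in mutant libraries, against 81.3, 99.8 and 81.2 CPM in OreR libraries. Its highest mutant library and lowest OreR library were nearly equal, and the log2 fold change of -0.22 ± 0.11 did not pass the test (edgeR adjusted p = 0.142). Calls of Dfd held in 3 of 11 alternative settings, and those of Antp and of abd-A held in 2 of 11.

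**Figure D2:**
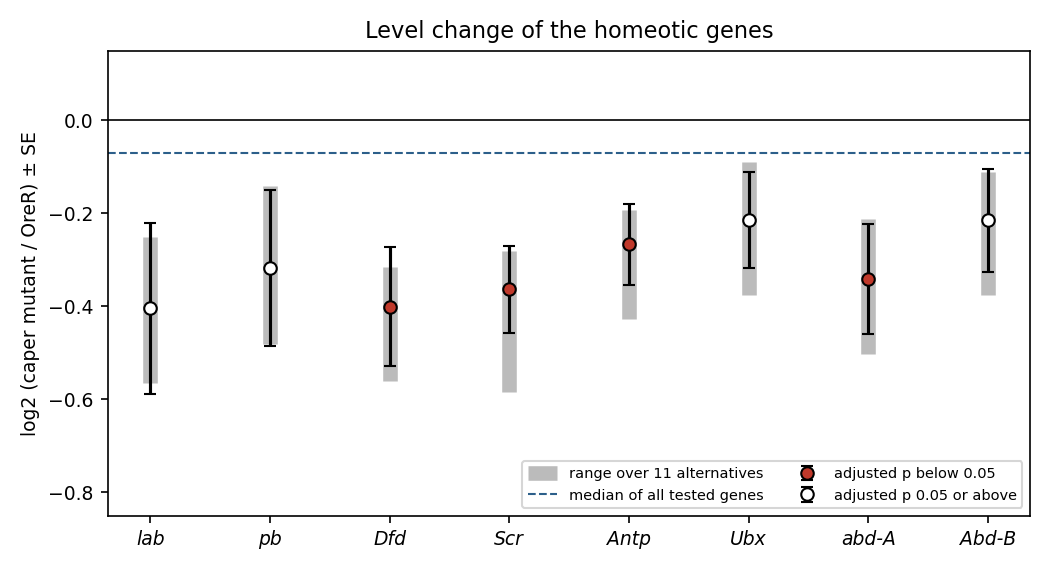
Log2 fold change of each homeotic gene, caper mutant over OreR, with black bars of 1 SE, grey bars for the range over 11 alternative settings, red points for the 4 genes past the test and a dashed line at -0.07, the median of all tested genes. All 8 estimates lie between -0.40 and -0.21, their SE bars overlap each other, and no grey bar reaches 0.

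Within the homeotic total, the balance between genes was almost the same in the genotypes, and no difference in share could be called. Ubx took 14.2%, 14.1% and 13.7% of the summed counts in mutant libraries, against 13.3%, 13.1% and 13.4% in OreR libraries. Abd-B took 16.5%, 15.8% and 16.1% in mutant libraries, against 15.5%, 15.2% and 14.97% in OreR libraries. For these 2 genes every mutant share was above every OreR share, with an exact two-sided permutation p of 0.1 each, the smallest that 3 against 3 libraries allow. Shares of the other 6 genes overlapped between genotypes, with abd-A at 31.9% ± 0.326 in the mutant and 32.8% ± 1.0 in OreR (SD, n = 3). Dfd had 3.96% ± 0.198 in the mutant and 4.27% ± 0.222 in OreR.

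Per kilobase of annotated exon, abd-A led with 27.2 ± 1.80 CPM per kb in the mutant and 34.4 ± 5.23 in OreR (SD, n = 3). Ubx followed at 15.3 ± 0.941 in the mutant and 17.7 ± 1.97 in OreR, then Scr at 11.97 ± 0.184 in the mutant and 15.4 ± 1.53 in OreR, on the same scale of CPM per kb. Antp came next with 10.9 ± 0.391 CPM per kb in the mutant and 13.1 ± 1.15 in OreR. Over the OreR libraries the ranges of Ubx and Scr overlapped, as did those of Scr and Antp, and in the mutant they did not. Within every single library of both genotypes, Ubx was above Scr and Scr above Antp. The gap from abd-A to Ubx was larger than the spread in each genotype. Dfd, Abd-B, lab and pb were lower, down to 2.12 ± 0.0924 CPM per kb for pb in the mutant and 2.64 ± 0.525 in OreR. The place of Abd-B depended on the length used. It had 6.39 ± 0.491 CPM per kb in the mutant and 7.42 ± 0.906 in OreR over 11.8 kb of exon, and 10.98 ± 0.844 in the mutant and 12.8 ± 1.56 in OreR over 6.86 kb, when a stretch found in a single annotated transcript (RJ) was left out.

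Reads across junctions give a level that does not depend on that length. For each gene but Ubx, this level was the median CPM over junctions common to all annotated transcripts. For abd-A 3 such junctions were used, and J016, also in all its transcripts, was left out. Ubx has no common junction, so its reads were summed over the 3 alternative junctions into its 3′ exon. On this scale abd-A had 4.32 ± 0.307 CPM in the mutant and 5.80 ± 1.17 in OreR (SD, n = 3). The Ubx sum was 3.82 ± 0.581 CPM in the mutant and 4.44 ± 0.596 in OreR. The values of abd-A and Ubx overlapped in each genotype, but a median and a sum are unlike measures, so these genes are not ranked on this scale. Over its 3 common junctions Abd-B had 2.17 ± 0.208 CPM in the mutant and 3.10 ± 0.199 in OreR. Those junctions did not move alike. Their log2 changes in use were -0.08 for J013, -0.19 for J014 and 0.17 for J015, none past the test (edgeR diffSpliceDGE). Dfd had 1.04 ± 0.147 CPM in the mutant and 1.43 ± 0.0257 in OreR. Antp, whose gene level fell, had 2.80 ± 0.293 CPM across its single common junction in the mutant and 2.71 ± 0.449 in OreR, so that junction was not lower. These junction levels were not tested between genotypes.

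Use of exons and junctions inside the homeotic genes did not pass the test anywhere. Of the 120 features, 111 could be tested, and 0 of them changed relative to the rest of their gene, against 1.81% of all 89049 features tested (edgeR diffSpliceDGE, Benjamini-Hochberg adjusted p below 0.05). At an unadjusted p below 0.05 there were 4, which is 3.60% of the features tested in these genes, against 5.46% of all features. The smallest adjusted p was 0.162. Combined over the features of a gene by the Simes method, the smallest adjusted p among the 8 genes was 0.652, and 6.07% of all genes passed. Estimated changes in use were small, between -0.53 and 0.28 on the log2 scale, with a median size of 0.0751 in the homeotic genes and 0.0652 over all features. These values set how far isoform choice could be followed at this depth, since many junctions of the set carried fewer than 100 reads per library.

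Ubx makes its protein isoforms by including or skipping microexon I and microexon II, each 51 nt long, and by using a downstream donor that adds the 27-nt b element to the 5′ exon. The annotated proteins run from 389 amino acids with all 3 elements to 346 with none. All isoforms keep the homeodomain, which lies in the 3′ exon, and the form that skips both microexons is known mainly from the central nervous system. Splicing out of the 5′ exon was read from junction counts, as the share of reads that join it to microexon I (both microexons kept), to microexon II (microexon I skipped) or to the 3′ exon (both skipped).

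Joining to microexon I took 119 of 168, 103 of 128 and 120 of 154 junction reads in mutant replicates 1 to 3, which is 70.8%, 80.5% and 77.9%. In OreR replicates 1 to 3 it took 99 of 158, 140 of 226 and 110 of 166 reads, which is 62.7%, 61.9% and 66.3%. All mutant libraries were above all OreR libraries, with means of 76.4% ± 4.99 in the mutant and 63.6% ± 2.32 in OreR (SD, n = 3), a difference of 12.8 percentage points. Skipping of microexon I moved the other way, at 23.8%, 16.4% and 19.5% of reads in mutant libraries, against 30.4%, 31.9% and 30.7% in OreR libraries. Again the genotypes did not overlap, although 95% Wilson intervals of single libraries reached 6.03 to 7.46 points to either side for these shares and cover counting error only. The exact two-sided permutation p was 0.1 for each share, the smallest possible here, and 0.4 after Benjamini-Hochberg adjustment over the 12 splice or promoter choices compared in the set. Neither difference can therefore be called.

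Leaving out each library in turn kept the microexon I difference between 10.8 and 15.6 points. The junction from the 5′ exon without b to microexon II (J014) had the lowest p of the Ubx features, with 36, 18 and 28 reads in mutant libraries and 45, 64 and 46 reads in OreR libraries. Its log2 change in use of -0.46 did not pass the test (edgeR diffSpliceDGE, adjusted p = 0.658). Its counterpart into microexon I (J016) had 98, 84 and 88 reads in mutant libraries and 76, 97 and 81 reads in OreR libraries, a log2 change in use of 0.24 that did not pass either (edgeR diffSpliceDGE, adjusted p = 1.00). The microexon I bin itself had a log2 change in use of 0.19 ± 0.11 (SE; edgeR diffSpliceDGE, adjusted p = 1.00).

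The form that skips both microexons was rare in both genotypes, at 5.36%, 3.13% and 2.60% in mutant libraries and 6.96%, 6.19% and 3.01% in OreR libraries, with overlapping values (exact permutation p = 0.3). The b element was used in 18.05% ± 3.67 of reads in the mutant and 19.8% ± 3.11 in OreR (exact permutation p = 0.7). The remaining Ubx junctions with enough reads changed little in use: J009, from microexon II to the 3′ exon, by 0.02, J012, from microexon I to microexon II, by 0.15, and J015, from the b donor to microexon I, by -0.09 (log2; edgeR diffSpliceDGE, adjusted p = 1.00 each). Reads entering and leaving a microexon balanced, with 691 and 694 reads on the 5′ and 3′ sides of microexon I over all libraries, and 956 and 928 on those of microexon II. An antisense RNA, asRNA:PS4, overlaps exons of Ubx in the current annotation and has no entry of its own in the table. The strand setting of the counting is not given in the sources used here.

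**Figure D3:**
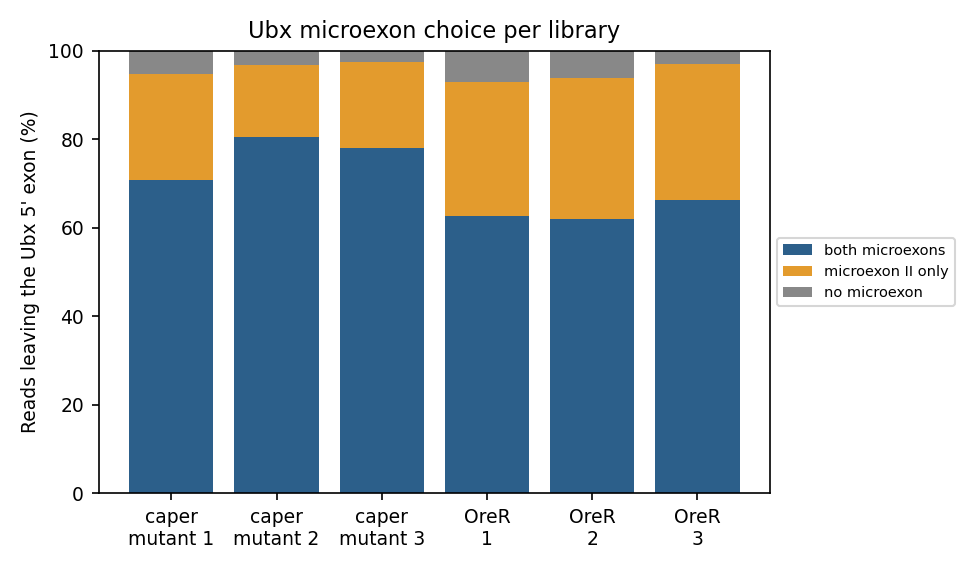
Reads leaving the Ubx 5′ exon in each library, in percent, stacked by the exon they join: microexon I (both microexons kept, blue), microexon II (orange) or the 3′ exon (no microexon, grey), with the 3 caper mutant libraries left of the 3 OreR libraries. The blue part reaches 70.8% to 80.5% in the mutant and 61.9% to 66.3% in OreR.

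Antp is transcribed from 2 promoters and has a 39-nt microexon and a 12-nt stretch before the homeobox exon, which set protein lengths between 361 and 378 amino acids in most annotated forms. The microexon was kept in 93.0% ± 0.531 of reads in the mutant and 93.0% ± 3.22 in OreR (SD, n = 3; exact permutation p = 1). The 12-nt stretch was kept in 77.2% ± 4.25 of reads in the mutant and 76.6% ± 2.22 in OreR (exact permutation p = 0.8). The distal promoter, read from junction J019 against J018 of the proximal transcripts, supplied 57.9% ± 4.87 of these reads in the mutant and 56.4% ± 1.35 in OreR (exact permutation p = 0.9). All these shares overlapped between genotypes, and the sign of each difference turned on leaving out single libraries. Intervals of single libraries reached up to 9.24 points to either side for the promoter share.

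Among Antp junctions, J020, which joins the 1023-nt and 88-nt exons at the start of distal transcripts, had 53, 43 and 53 reads in mutant libraries, against 89, 116 and 82 reads in OreR libraries. All mutant libraries were lower, and the log2 change in use was -0.41 without passing the test (edgeR diffSpliceDGE, adjusted p = 0.560). The next junction of the same transcripts, J019, had 87, 64 and 79 reads in mutant libraries and 108, 106 and 87 reads in OreR libraries, a log2 change in use of -0.03 (edgeR diffSpliceDGE, adjusted p = 1.00). Bins of the 88-nt and 1023-nt exons (E010 and E011) held a lower share of the gene in every mutant library. Their log2 changes in use were -0.15 and -0.18, neither past the test (edgeR diffSpliceDGE). The bin of the proximal transcripts (E009) overlapped, with a log2 change of 0.04. The promoter share above rests on J019 and did not use J020 or these bins. The 88-nt exon did not balance as well as the Ubx microexons did, with 436 reads on its 5′ side and 531 on its 3′ side. The ratio of 5′ to 3′ reads was 0.61, 0.67 and 0.67 in mutant libraries, against 0.82, 1.09 and 0.94 in OreR libraries. This ratio was not tested between genotypes. The other Antp junctions with at least 10 reads on average (J012 to J018) had log2 changes in use between -0.12 (J015, which skips the microexon) and 0.24 (J017, an internal junction of all transcripts), none of them past the test (edgeR diffSpliceDGE). A protein-coding gene, CG46458, overlaps Antp exons on the same strand in the current annotation and has no entry in the table, so its reads cannot be separated from those of Antp.

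Scr has alternative first exons upstream of a shared coding exon. The upstream one supplied 66.7%, 61.0% and 71.0% of first-exon junction reads in mutant libraries, against 56.8%, 55.2% and 64.6% in OreR libraries. The mutant mean was 66.2% ± 4.99 and the OreR mean 58.9% ± 5.03 (SD, n = 3), but the values overlapped (exact permutation p = 0.2). The junction from the nearer first exon (J006) had 31, 23 and 27 reads in mutant libraries, against 60, 74 and 51 reads in OreR libraries. Every mutant count was lower, and the log2 change in use of -0.50 did not pass the test (edgeR diffSpliceDGE, adjusted p = 0.408).

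Abd-B makes a long protein of 493 amino acids and short ones that share the homeodomain with it and start from separate promoters. The short forms have 270 amino acids in most annotated transcripts, 323 in RF and 286 in RG. The first exon of the long protein supplied 48.9% ± 6.33 of first-exon junction reads in the mutant and 49.6% ± 2.70 in OreR (SD, n = 3; exact permutation p = 1). The long and short forms were thus at similar junction levels, and their values overlapped between genotypes. Among first exons of the short forms, those upstream of the nearest one supplied 83.7%, 84.1% and 89.5% in mutant libraries, against 75%, 78.9% and 74.5% in OreR libraries. RF and RG share the junction of the nearest one with transcripts of the 270-residue form. Every mutant value was above every OreR value, with means of 85.7% ± 3.23 in the mutant and 76.1% ± 2.38 in OreR. This share rests on 44 to 71 reads per library, with Wilson intervals of 8.10 to 11.2 points to either side, and the exact permutation p was 0.1 (0.4 after adjustment over the 12 choices).

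pb, Dfd, lab and abd-A offered little choice to compare. In pb the 15-nt exon was included in 36 of 36 reads in the mutant and 39 of 40 in OreR. A separate 15-nt extension of the next exon was kept in 30 of 36 reads in the mutant and 35 of 40 in OreR. The short-form first exon of lab, which would give a protein of 213 in place of 629 amino acids, had 0 of 98 junction reads in the mutant, which allows a share of up to 3.06%. It had 0 of 152 in OreR, which allows up to 1.97%. The bin of that first exon (E003) nevertheless held 11, 3 and 6 reads in mutant libraries and 3, 13 and 12 reads in OreR libraries, with overlapping values. These reads do not cross its junction, and their source was not tested. Dfd has a single annotated transcript with 4 junctions, and their log2 changes in use lay between -0.06 and -0.01. In abd-A the bin E009 had the smallest p of all features of the set, with 45, 44 and 45 reads in mutant libraries, against 89, 125 and 88 reads in OreR libraries. The mutant counts were all lower and nearly equal, and the log2 change in use of -0.52 ± 0.15 (SE) did not pass the test (edgeR diffSpliceDGE, adjusted p = 0.162). The bins of abd-A could not be paired with current exons, so the place of E009 in the transcript is not given.

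**Figure D4:**
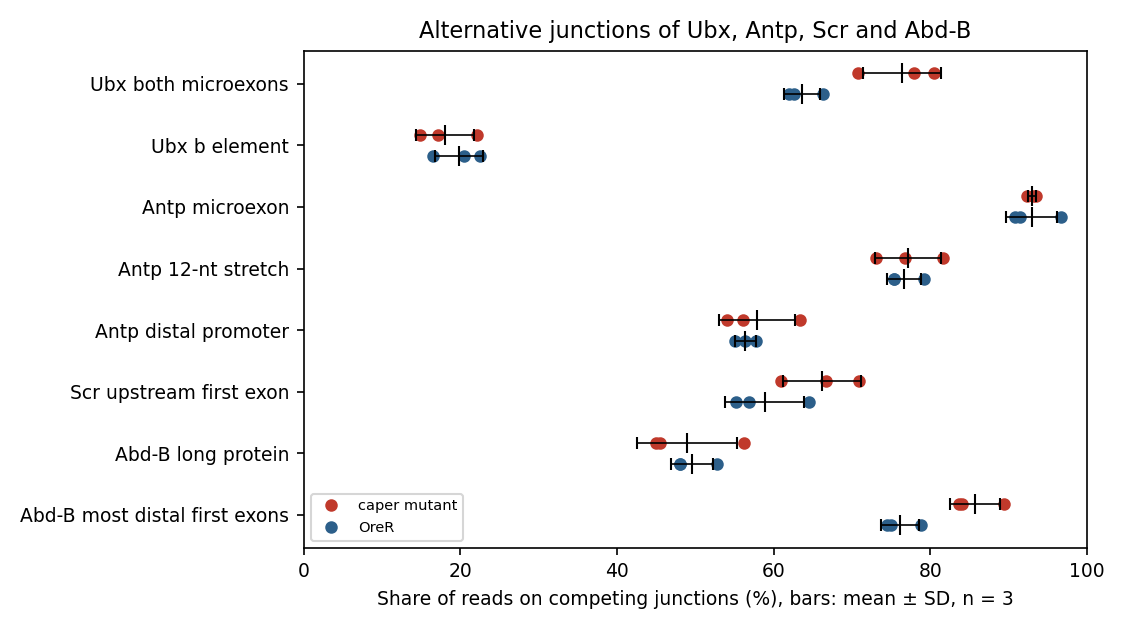
Share of reads on competing junctions, in percent, for 8 splice and promoter choices of Ubx, Antp, Scr and Abd-B, with caper mutant libraries (red) above OreR libraries (blue), 1 point per library and bars for the mean ± SD of 3. The Ubx both-microexon share and the Abd-B most distal first exons are without overlap, and the Abd-B share lies at 83.7% to 89.5% in the mutant and 74.5% to 78.9% in OreR.

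The balance of reads between the 3′ and 5′ ends of genes gives a measure of how evenly transcripts were covered. Over 5329 genes with at least 4 bins and a mean of 100 counts, the median log2 ratio of the 3′-most to the 5′-most bin was 2.15, 1.97 and 1.81 in mutant libraries, against 1.78, 1.96 and 1.81 in OreR libraries. Mutant replicate 1 was the highest and the rest overlapped. In the homeotic genes this log2 ratio was higher in the mutant for 7 of 8, by 0.42 in abd-A, 0.30 in Antp and 0.25 in Scr, lower by 0.02 in Dfd, and the genotypes overlapped in all 8. Over all 5329 genes the median difference was 0.11, with every mutant library above every OreR library in 15.97% of genes and below in 7.02%. Its part in the levels and in the use of 5′ features was not tested.

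Among regulators of the homeotic genes, several trithorax group genes rose, and the share of Polycomb group genes that rose was near that of all genes. Over all genes tested, 26.4% rose and 20.6% fell. Of 9 trithorax group genes tested, which keep homeotic genes active, 5 rose and 1 fell, with a median log2 fold change of 0.60 (edgeR quasi-likelihood test, as for the lists that follow). ash2, a subunit of histone H3 lysine 4 methyltransferase complexes, rose 3.30-fold to 87.3 ± 9.15 CPM in the mutant, against 26.5 ± 2.24 CPM in OreR (edgeR adjusted p = 0.000122). The SWI/SNF-type remodelling subunits Snr1, mor and brm rose 1.97-fold, 1.79-fold and 1.67-fold. Of 14 Polycomb group genes, which keep homeotic genes silent outside their domains, 4 rose, 1 fell and 9 did not pass the test, with a median log2 fold change of -0.05. Caf1-55, a histone-binding subunit of the E(z) complex, rose to 511.7 ± 38.7 CPM in the mutant, against 218.3 ± 36.0 CPM in OreR (edgeR adjusted p = 0.000700), and the DNA-binding pho and its partner Sfmbt rose 1.86-fold and 2.26-fold. The genes that fell were kto of the trithorax group and Asx of the Polycomb group, and these calls depended on the settings. With DESeq2, with annotated junctions alone, without the filter and with the replicate block, 0 fell in either list. With upper quartile scaling 2 trithorax group genes and 5 Polycomb group genes fell. The number that rose was 4 in the Polycomb group under each of these settings and 5 in the trithorax group. Without each library in turn the number that fell was 0 or 1 in the trithorax group and 0 to 2 in the Polycomb group. None of 10 segmentation regulators passed the test, with a median log2 fold change of -0.01, and 2 fell with upper quartile scaling.

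Genes of proteins that act with homeotic proteins did not pass the test, and the share of their known targets that fell was near that of all genes. The homeodomain cofactor exd had 484.1 ± 32.8 CPM in the mutant and 434.0 ± 16.3 CPM in OreR, and hth, which brings exd into the nucleus, had 297.9 ± 26.3 CPM in the mutant and 355.2 ± 29.7 CPM in OreR. Neither passed the test (edgeR adjusted p = 0.138 and 0.0657), and 0 of 4 cofactor genes changed, or 2, both lower, with upper quartile scaling. Of 14 genes known as direct or genetic targets of homeotic proteins, 4 fell (28.6%, against 20.6% of all genes tested) and 0 rose, with a median log2 fold change of -0.15. ct, a homeodomain protein of the posterior spiracle and other organs, fell to 87.1 ± 7.86 CPM in the mutant, against 123.1 ± 21.9 CPM in OreR (edgeR adjusted p = 0.0206). Con, grn and CrebA, the last of which is switched on by Scr in the salivary gland, fell by 0.39, 0.39 and 0.34 on the log2 scale. The number that fell was 0 without mutant replicate 1 or mutant replicate 2, 1 without OreR replicate 3, 2 without OreR replicate 2 or mutant replicate 3, and 7 with upper quartile scaling.

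Genes with a known role in Ubx microexon choice moved in both directions. vir, fl(2)d and crn, which were found as modifiers of Ubx splicing, rose 1.51-fold, 1.54-fold and 1.68-fold (edgeR adjusted p = 0.00282, 0.000877 and 0.000896). fne, a neuronal ELAV family protein, fell to 185.4 ± 7.43 CPM in the mutant, against 268.4 ± 36.2 CPM in OreR (edgeR adjusted p = 0.00585), and elav had 322.0 ± 27.8 CPM in the mutant and 385.8 ± 47.8 CPM in OreR without passing the test (edgeR adjusted p = 0.0922).

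Among the other genes of the homeotic complexes, 2 of 6 tested rose and 0 fell, against 26.4% of all genes that rose. bcd, whose maternal RNA sets the anterior of the embryo, had 147.5, 183.3 and 199.9 CPM in mutant libraries, against 65.0, 42.0 and 71.5 CPM in OreR libraries, a log2 fold change of 1.57 ± 0.21 (edgeR adjusted p = 0.00101). lncRNA:bxd, a noncoding RNA transcribed from the regulatory region upstream of Ubx, had 5.36, 4.32 and 5.07 CPM in mutant libraries, against 2.21, 2.64 and 2.33 CPM in OreR libraries. The mutant libraries were all higher, and its log2 fold change was 1.04 ± 0.17 (edgeR adjusted p = 0.00247), in the opposite direction to the estimate for Ubx. zen, zen2, ftz and Ama did not pass the test. The microRNA gene mir-10 was under the filter, and mir-iab-8 was listed at 0 counts in all libraries.

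**Figure D5:**
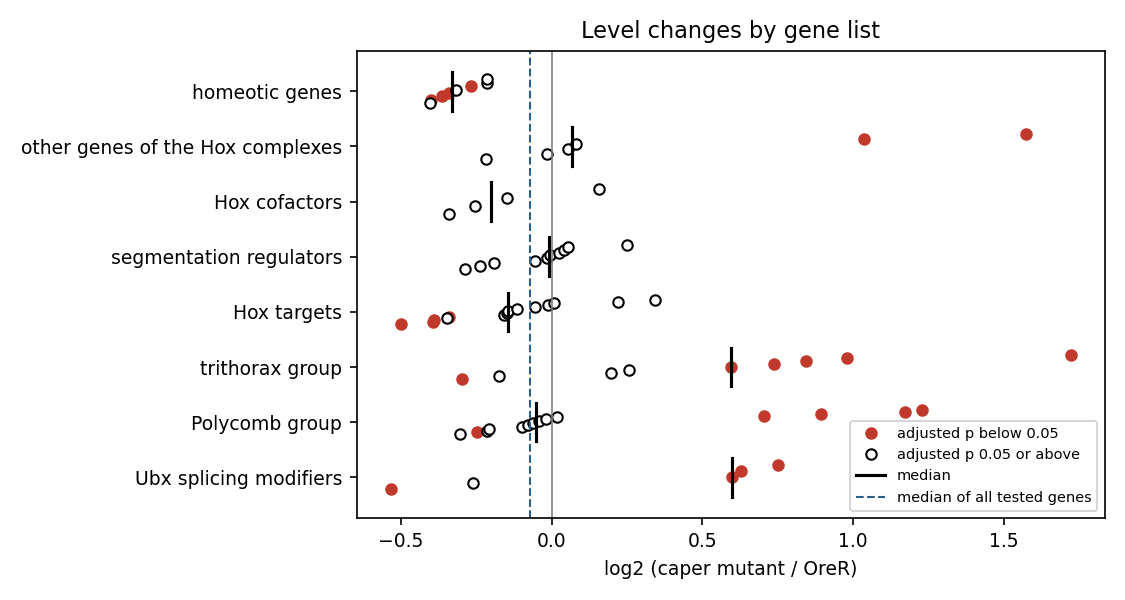
Log2 fold change, caper mutant over OreR, of each tested gene in the homeotic set and in 7 lists of related genes, with red points for genes past the test, a bar at each median and a dashed line at the median of all tested genes, -0.07. The homeotic genes lie between -0.40 and -0.21, and the trithorax group median lies at 0.60.

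Many markers of tissues in which the homeotic genes are expressed fell in the mutant, and most of the maternal genes tested rose. For comparison, 20.6% of all genes tested fell and 26.4% rose. Of 12 neuron markers 8 fell, and of 12 muscle markers 9 fell. Of 11 epidermis and cuticle markers 5 fell and of 7 midgut markers 5 fell, with 0 rising in each of these lists. The median log2 fold changes were -0.65, -0.75, -0.65 and -0.64 in that order, each further from 0 than the homeotic median of -0.33. Summed neuron markers lay between 770.2 and 827.0 CPM in the mutant and between 1092.1 and 1392.3 CPM in OreR. Summed muscle markers lay between 3074.9 and 5419.6 CPM in the mutant and between 6067.3 and 8868.9 CPM in OreR, and neither list overlapped. Summed epidermis and cuticle markers lay between 1174.4 and 1784.8 CPM in the mutant and between 1977.4 and 2805.8 CPM in OreR. Summed midgut markers lay between 454.1 and 507.8 CPM in the mutant and between 651.9 and 739.5 CPM in OreR. Most of the midgut sum was Vha55, a vacuolar proton pump subunit, with 298.9 ± 27.7 CPM in the mutant and 465.5 ± 29.6 CPM in OreR. GATAe fell from 94.0 CPM in OreR to 67.4 CPM in the mutant. The other midgut markers that fell, Mal-A1, Mal-A4 and Jon65Aiv, had means of only 0.44 to 3.28 CPM. srp and Amy-p did not pass the test, with log2 fold changes of -0.10 and 0.26. Of 11 maternal genes 7 rose, 0 fell and 4 did not pass the test, among them osk and exu with log2 fold changes of -0.26 and -0.16. Their sum lay between 3696.5 and 4981.6 CPM in the mutant and between 1736.2 and 2416.2 CPM in OreR. No marker in the table was at 0 in all libraries. Without mutant replicate 2, 5 neuron, 3 muscle and 2 epidermis markers fell. Without OreR replicate 2, 3 neuron and 5 muscle markers fell, and 7 maternal genes rose while 2 fell. Of the epidermis markers, 8 fell without mutant replicate 1 or with DESeq2, and 9 with upper quartile scaling. The part of these shifts, and of embryo age, in the lower homeotic levels was not tested.

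The 8 genes shared a profile over the 6 libraries, with a mean centred log2 CPM of -0.06, -0.26 and -0.15 in mutant replicates 1 to 3 and 0.05, 0.36 and 0.06 in OreR replicates 1 to 3. Mutant replicate 2 was lowest and OreR replicate 2 highest. The genes most like this profile, by Pearson's r over the 6 libraries where mean log2 CPM was 1 or more, were FER, sano, so, Oatp26F and mid, with r between 0.994 and 0.995. Such values were common, since 281 of 8591 candidate genes had r above 0.95, and all share the libraries and their scaling. so, the sine oculis homeodomain protein of the eye and head, had 36.0 ± 2.95 CPM in the mutant and 46.8 ± 6.17 CPM in OreR. mid, a T-box protein of segments, heart and nervous system, had 38.4 ± 2.39 CPM in the mutant and 45.3 ± 4.15 CPM in OreR.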

How the data were processed

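RNA of whole embryos was measured in 3 caper mutant and 3 OreR libraries, made with a stranded kit per the labels' protocols and grouped by their titles. The authors deposited 1 table of raw counts per exonic bin and junction and per rest of the gene, with the same values divided by a size factor of each library as a normalised signal, which was not tested. GSNAP 2014-12-17, SAMtools and the builds BDGP5 and mm10 are named per the submitters' processing notes; the sources used here give neither the counter nor its strand setting. The gene count was the smallest sum of feature and rest, and in the 8 genes all sums were equal. A read pair can enter several features. Libraries held 34815930 to 42956396 gene counts. No pair of libraries of the same genotype was a duplicate, and pairs across genotypes were not checked.

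Levels of all genes were compared by the quasi-likelihood test of edgeR 4.0.16 (R 4.3.3), after filterByExpr and TMM scaling and with no term but genotype, and use with diffSpliceDGE over all features, Benjamini-Hochberg adjusted at 0.05. Standard errors are the fold change over the square root of F. The fits were tested on simulated data. Log2 CPM used a prior count of 2. The edgeR and DESeq2 p-values set the difference between genotypes against the spread among replicate libraries, with each genotype a single strain. Features were matched to BDGP6 transcripts by equal numbers of bins and junctions for lab, pb, Dfd, Ubx and, leaving out 1 transcript, Antp, and by junction numbers for Scr, abd-A and Abd-B, whose bins differed. Since the builds differ, no coordinates are printed. Splice and promoter choices are junction reads over those of all alternatives, with Wilson intervals, and were defined after the table was seen. No sequence is printed.

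Members, lists and tests were chosen with earlier results of these data known. All 8 genes are described. Features described are those past the test (0) and Ubx and Antp junctions with a mean of at least 10 reads, to which those at an unadjusted p below 0.05 were added after their values were seen, with a few others beside them. Up to 4 genes are named per list by p, and the 5 genes most like the profile; other list genes (hth, exd, elav) were chosen after their values were seen. Alternatives were DESeq2 1.42.0, upper quartile scaling, no filter on low counts, junctions alone, bins alone, a minimum of 10 counts for features, a replicate block and leaving out each library.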

Additional observations from a re-analysis of the deposited data

How the results depend on the processing

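All 8 homeotic log2 fold changes stayed negative under 11 alternatives, from -0.58 to -0.09, and pb passed in none. The count of homeotic genes that fell was 4 as reported, 2 with DESeq2, 2 with annotated junctions alone, 1 without the filter, 7 with upper quartile scaling and 0 to 2 on leaving out a library. Changed genes in all were 3169 to 4376 on leaving out a library, with the lowest without mutant replicate 2. Features with changed use in all were 867 with exonic bins alone, 649 with junctions alone, both over fewer features, and 940 to 1535 on leaving out a library. The homeotic genes had 0 under every one of the 10 alternatives in edgeR, with 1 to 4 at an unadjusted p below 0.05.

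Replicate numbers paired no samples by the labels. Correlations of deviations for equal numbers were 0.09, -0.01 and 0.60, and only replicates 3 correlated best with each other. With a replicate block 1 homeotic gene fell (Scr), 4943 genes changed and 1684 features changed.

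With junctions alone the log2 use turned to 0.012 for Antp J013, 0.016 for Antp J019 and -0.034 for Ubx J009. On leaving out a library it ran from -0.058 to 0.071 for Antp J012, -0.12 to 0.086 for J013, -0.32 to 0.052 for J015, -0.13 to 0.032 for J018, -0.080 to 0.045 for J019, -0.032 to 0.050 for Ubx J009 and -0.27 to 0.042 for J015 of Ubx. Differences in share, an alternative chosen after seeing the data, ran in points from -1.05 to 1.89 for the Antp microexon, -1.69 to 2.54 for the Antp 12-nt stretch, -1.28 to 3.35 for the Antp distal promoter and -4.33 to 1.27 for the Abd-B long protein. None of these passed a test, and the cause was not tested. Depth limits the junction shares: Wilson intervals reached up to 11.2 points for the Abd-B distal first exons and 27.9 for the pb extension.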
